A study of Mus musculus with 8 samples.

Results

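The 9 genes described here are the readers of DNA methylation that lie outside the methyl-CpG-binding domain (MBD) family, together with factors of active demethylation. They are Zbtb33, Zbtb4, Zbtb38, Uhrf1, Uhrf2, Tdg, Gadd45a, Gadd45b and Gadd45g. They were picked by gene symbol from the 19201 genes in the expression table, and all 9 were found there. Of these, 8 reached the level needed for testing, and Tdg did not.

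Hippocampal RNA was compared between wild-type mice and Mbd2-/- mice, 4 libraries each, to see which transcripts differ when the methyl-CpG-binding protein Mbd2 is lost. All mice were on a C57BL/6 background per the labels and were 10 to 12 weeks old, and both genotypes were littermates from heterozygous parents, so that no dam was Mbd2-/-. Each library held the hippocampi of a pair of mice, and a replicate is therefore a pool. The study's methods say that males and females were grouped. Xist, which is expressed from the inactive X chromosome of females, was only between 0 and 5.77 normalized counts in all 8 libraries. The Y-linked Ddx3y was between 469 and 939, which shows male tissue in every pool. The labels give no sex, and the share of female tissue in these pools was not tested. The deletion is constitutive and affects every cell from the embryo on, and bulk tissue was measured, in which fewer cells of a type and less RNA per cell cannot be told apart.

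Methylated cytosines in CpG pairs are read by several unrelated protein folds. The MBD family, to which Mbd2 belongs, is one of them. Kaiso (Zbtb33), Zbtb4 and Zbtb38 bind methylated DNA through zinc fingers and recruit repressor complexes through a BTB domain, whereas Uhrf1 and Uhrf2 hold a SET and RING-associated domain, with which Uhrf1 recognises hemimethylated DNA behind the replication fork and brings in the maintenance methyltransferase Dnmt1. Removal of the mark can begin with oxidation by the Tet enzymes, after which the glycosylase Tdg cuts out the oxidised base and base excision repair fills the gap. The Gadd45 proteins are small stress-inducible adaptors that have been linked to this repair-based demethylation, and Gadd45b is known in the hippocampus as a gene induced by neuronal activity.

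The 3 Gadd45 promoters are printed first, since the only gene of the 9 that passed the test belongs to this family. Each line gives the 250 bases upstream of the annotated start, 5′ to 3′ on the strand of the gene, from RefSeq on GRCm38.p6, with every CpG in capitals. Gadd45b is at chr10:80929841-80930090 on the plus strand, Gadd45g at chr13:51846425-51846674 on the plus strand and Gadd45a at chr6:67037408-67037657 on the minus strand.
Gadd45b: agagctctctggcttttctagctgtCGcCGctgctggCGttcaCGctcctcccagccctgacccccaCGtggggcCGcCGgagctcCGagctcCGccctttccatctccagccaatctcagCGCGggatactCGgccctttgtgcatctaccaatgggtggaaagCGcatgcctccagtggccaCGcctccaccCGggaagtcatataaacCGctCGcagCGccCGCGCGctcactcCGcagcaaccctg
Gadd45g: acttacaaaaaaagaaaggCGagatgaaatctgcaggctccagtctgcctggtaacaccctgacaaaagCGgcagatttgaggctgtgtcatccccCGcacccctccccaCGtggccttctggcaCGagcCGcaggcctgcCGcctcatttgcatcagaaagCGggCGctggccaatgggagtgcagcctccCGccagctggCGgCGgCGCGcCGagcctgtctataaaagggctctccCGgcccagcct
Gadd45a: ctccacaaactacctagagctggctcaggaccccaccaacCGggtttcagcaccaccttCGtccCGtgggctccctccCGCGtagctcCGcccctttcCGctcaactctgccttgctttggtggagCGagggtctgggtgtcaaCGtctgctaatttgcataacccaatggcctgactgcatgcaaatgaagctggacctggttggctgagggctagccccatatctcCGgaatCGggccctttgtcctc

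The Gadd45b window held 22 CpG pairs, the Gadd45g window 16 and the Gadd45a window 11, where the median over 32841 windows of 27018 genes was 6. Counted on both strands, the letters CCAAT occurred 2 times upstream of Gadd45b and 1 time upstream of each of the other two, and 33.9% of all windows hold them at least 1 time. The 8-letter cyclic AMP response motif TGACGTCA was not among these letters in any of the 3, and it occurs in 1.55% of all windows. Among the readers, the Zbtb33 window held 27 CpG pairs, the Zbtb4 window 13 and the Uhrf2 window 23. Zbtb38 has 3 annotated starts with 6, 31 and 23 CpG pairs, and Uhrf1 has 2 with 10 and 30. The Tdg window held 19 CpG pairs and 1 TGACGTCA. The Kaiso site TCCTGCNA, which 4.03% of all windows hold, was found in no window of the 9 genes.

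Among the 9 genes, Gadd45b alone was called different between the genotypes, and it was higher in Mbd2-/- hippocampus by 1.35-fold (95% interval 1.12 to 1.63). Its log2 fold change of 0.44 came to 0.23 and was no longer called once a trend of the differences with transcript length was removed (limma adjusted p = 0.198). No gene of the set was called lower. The background in these data was high, since limma at an adjusted p under 0.05 called 22.0% of the 14504 tested genes in either direction, 12.0% higher and 10.0% lower in Mbd2-/- mice, and 1 gene called higher of 8 tested is close to that background. The median log2 fold change of the 8 genes was 0.06, beside -9.1e-05 over all tested genes, and the median size of the change irrespective of sign was 0.14, beside 0.15. All 3 Gadd45 genes and Uhrf1 had positive differences, and the 3 Zbtb genes and Uhrf2 had negative ones. Zbtb4 and Zbtb38 did not overlap between the genotypes, which held for 23.6% of all tested genes.

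**Figure D1:**
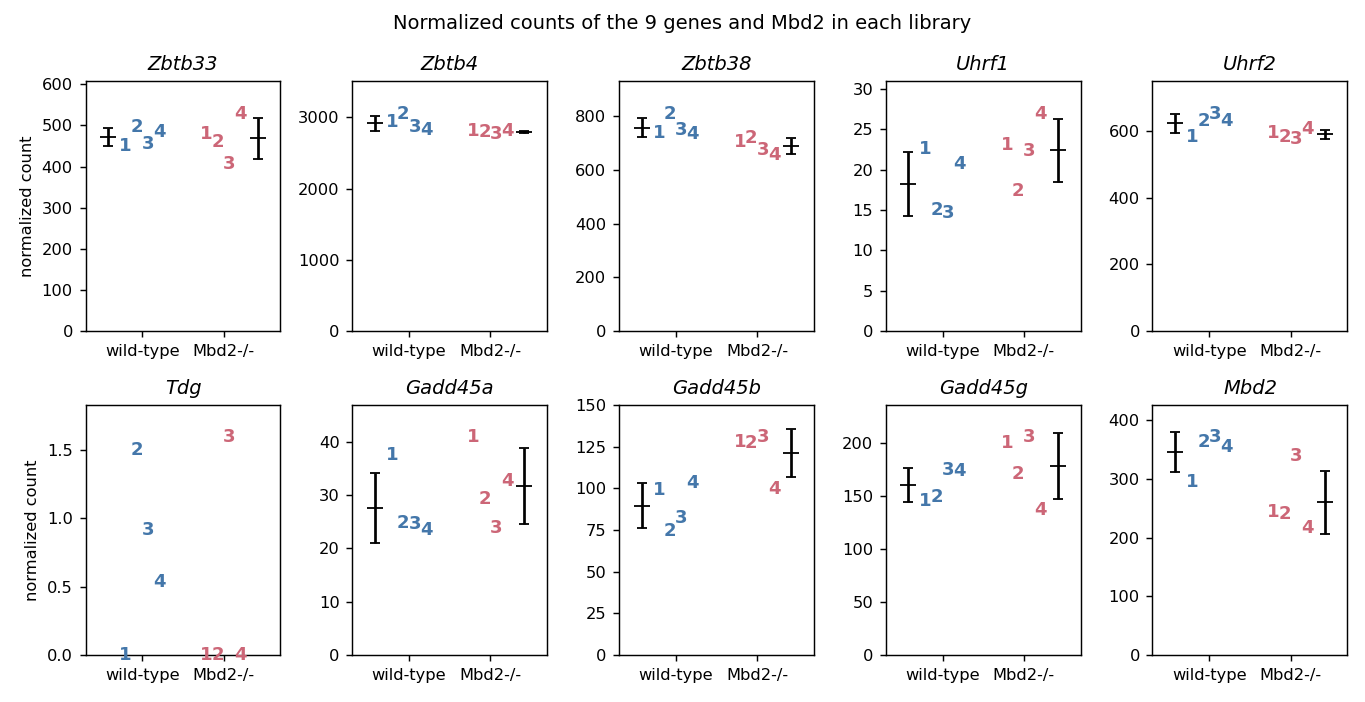
Normalized counts (vertical axes, starting at 0) of the 9 genes and of Mbd2 in wild-type (blue) and Mbd2-/- (red) libraries. Digits are the replicate numbers of the libraries and black bars the mean and SD over 4 libraries, left out for Tdg, which never exceeded 2 reads. In the Gadd45b panel, Mbd2-/- libraries 1, 2 and 3 lie above all wild-type libraries and library 4 lies among them.

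Sequencing depth was 8087750 to 23790825 reads on genes per library, so that 1 read equals 0.531 to 1.59 normalized counts. Mbd2 itself, the targeted gene, had normalized counts of 295, 363, 371 and 354 in the wild-type libraries and of 244, 239.6, 339 and 217 in the Mbd2-/- libraries. Of the Mbd2-/- values, 3 lay below every wild-type one, and library 3 lay within the wild-type range. The log2 fold change was -0.43 (SE 0.12, limma adjusted p = 0.0174; exact two-sided permutation p = 0.0571), and transcripts of this allele need not be absent, since exon 1 is left in place. Markers of other tissue also differed between the genotypes. All 16 choroid plexus genes were called higher in Mbd2-/- libraries, with a summed level of 48506 to 55095 against 25482 to 27138 normalized counts, and 10 of 15 thalamus genes were called lower and 1 higher, with sums of 7826 to 8313 against 9848 to 10141. Of 14 genes of hippocampal excitatory neurons, which mark the labelled tissue, all were detected in every library, 2 were called higher and 3 lower. Over all tested genes, 12.0% were called higher and 10.0% lower. The sums of the 14 were 119524 to 123176 in Mbd2-/- and 108832 to 110793 in wild-type libraries. Most of this was Camk2a, at 81908 ± 1449 and 68037 ± 941 normalized counts. Among the 14 log2 fold changes, 9 were negative and 5 positive, with a median of -0.04.

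The 9 transcripts spanned a wide range of levels in wild-type hippocampus. Divided by the length of the longest annotated transcript, the normalized count per kilobase was 374 ± 13.1 (SD, n = 4) for Zbtb4, 176 ± 8.17 for Uhrf2, 150.2 ± 14.9 for Gadd45g, 102 ± 4.84 for Zbtb38, 91.9 ± 4.24 for Zbtb33, 70.8 ± 10.7 for Gadd45b, 22.5 ± 5.42 for Gadd45a, 5.08 ± 1.11 for Uhrf1 and 0.210 ± 0.181 for Tdg. Each gene in this order lay above the next in all 4 wild-type libraries without overlap. The smallest gap was that between Uhrf2 and Gadd45g, where the lowest Uhrf2 library stood at 165 and the highest Gadd45g library at 163 per kilobase. Much of the sequence of Tdg and Uhrf1, the lowest of the order, recurs elsewhere in the genome, as given below. Whether this lowered their counts was not tested.

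Zbtb4 (chr11:69579414-69597525 in mm9, plus strand), the most abundant of the set, had normalized counts of 2938, 3052, 2862 and 2819 in wild-type and 2812, 2795, 2772 and 2809 in Mbd2-/- libraries. Every Mbd2-/- library was below every wild-type library, but the distance between the nearest of them was small, and the spread in wild-type (SD 102) far exceeded that in Mbd2-/- libraries (SD 18.3). Its log2 fold change of -0.06 (SE 0.05, 95% interval -0.16 to 0.04) was not called (limma adjusted p = 0.375), while the exact permutation p was 0.0286, the smallest that 4 against 4 libraries can give.

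Zbtb38 (chr9:96583182-96653250, minus strand) is the relative of Zbtb4 and Kaiso that, like the former, can bind a single methylated CpG. It had normalized counts of 736, 809.5, 750.2 and 732 in wild-type and of 704, 719.7, 676 and 656 in Mbd2-/- libraries, again without overlap and with all Mbd2-/- libraries lower. A log2 fold change of -0.14 (SE 0.06, 95% interval -0.26 to -0.01) did not pass the adjusted threshold (limma adjusted p = 0.113; exact permutation p = 0.0286). Its exons share 1799 bases with E030011O05Rik on the same strand, which had only 11.5 ± 2.29 and 13.2 ± 4.68 normalized counts.

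Zbtb33 (chrX:35542970-35550223, plus strand) encodes Kaiso, which binds paired methylated CpGs. It had normalized counts of 449.6, 495, 456 and 483 in wild-type and of 479, 459, 406 and 529 in Mbd2-/- libraries. The Mbd2-/- libraries held both the lowest and the highest value, and the genotypes overlapped. Its mean was 471 ± 21.7 against 468 ± 50.5, and the log2 fold change of -0.01 (95% interval -0.18 to 0.15, limma adjusted p = 0.922) bounds any difference between the means at less than 0.18 on the log2 scale in either direction at this level of confidence. Its exons share 474 bases with Fam70a on the opposite strand, a symbol that is not in the table.

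Within the summed count per kilobase of the 3 Zbtb readers, Zbtb4 made up 65.8 ± 0.708% in wild-type and 66.0 ± 1.03% in Mbd2-/- libraries, Zbtb33 made up 16.2 ± 0.608% and 16.8 ± 1.497%, and Zbtb38 18.0 ± 0.312% and 17.1 ± 0.757%. The Zbtb38 share had an exact permutation p of 0.0571. The median log2 fold change of the 31 other tested genes with a Zbtb symbol was -0.08, with 10 positive and 21 negative values. None of them was called higher and 2 were called lower, beside 12.0% and 10.0% over all tested genes. The lower ones were Zbtb16, a repressor also known as Plzf, at -0.42 (limma adjusted p = 2.5e-04) and Zbtb14 at -0.26 (limma adjusted p = 0.0198). The most abundant, Zbtb18, had 7389 ± 209.9 and 7667 ± 781 normalized counts.

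Genes for proteins that these readers work with were read from a list of their own. Among 15 genes of the p120 catenin, NCoR, Sin3, CtBP and histone deacetylase partners, 1 was called higher and 1 lower, with a median of -0.04, and 1 was higher and 4 were lower without overlap, beside 22.0% called and 23.6% without overlap over all tested genes. Hdac1, a histone deacetylase, rose by 0.40 on the log2 scale (206 ± 24.8 to 272 ± 27.7 normalized counts, limma adjusted p = 0.00891), and Sin3b, a corepressor scaffold, fell by 0.19 (limma adjusted p = 0.0388). Ncor1, the corepressor that Kaiso recruits, was the most abundant at 4370 ± 27.5 and 4219 ± 336 and was not called.

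Uhrf2 (chr19:30105003-30168212, plus strand), the ubiquitin ligase related to Uhrf1 that also recognises hydroxymethylated DNA, had normalized counts of 583, 629.7, 652 and 629 in wild-type and of 594, 581, 577 and 606 in Mbd2-/- libraries. Mbd2-/- libraries 2 and 3 were below the wild-type range and the other two within it. This gave a log2 fold change of -0.08 (SE 0.06, 95% interval -0.21 to 0.05, limma adjusted p = 0.358).

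Uhrf1 (chr17:56442744-56462909, plus strand) was scarce beside its relative. It had 15, 20, 16 and 39 reads in the wild-type libraries and 18, 19, 14 and 28 in the Mbd2-/- libraries, which became 22.5, 15.05, 14.6 and 20.7 against 23.0, 17.4, 22.3 and 26.9 normalized counts. Mbd2-/- libraries 1 and 4 lay above every wild-type value and the other two within that range. The log2 fold change of 0.29 had a wide interval (SE 0.23, 95% interval -0.19 to 0.77, limma adjusted p = 0.380), which corresponds to anything from 0.877-fold to 1.71-fold. Part of its sequence is not unique, as 10.2% of the 100-base windows of its transcript had an identical copy elsewhere in mm9 and 48.4% a copy with at most 2 mismatches, on chrX:118447609-118450192 in the pseudogene Gm5648.

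The surroundings of Uhrf1 were read from 12 tested partner genes, with a median log2 fold change of 0.08. Of these, 2 were called higher and none lower, beside 12.0% and 10.0% over all tested genes. They were Pcna, the sliding clamp of replication and repair, which rose by 0.32 on the log2 scale (325 ± 26.7 to 405 ± 44.6 normalized counts, limma adjusted p = 0.0157), and Hdac1. The most abundant partner, the histone methyltransferase Ehmt2, had 2876 ± 98.1 and 2960.2 ± 235 normalized counts. Uhrf1 is known to be high in dividing cells. Of 17 genes of cycling cells 12 were tested, 1 of them, Pcna, was called higher and none lower, and their median was -0.01. The summed level of all 17 was 1249 to 1321 normalized counts in wild-type and 1325 to 1413 in Mbd2-/- libraries, and none was at 0 in any library. Without Pcna, whose call was lost with the length trend removed, the sums of the other 16 were 941 to 959 normalized counts in wild-type and 958 to 973 in Mbd2-/- libraries and overlapped. Of the 12 tested, 6 had positive and 6 negative log2 fold changes, from -0.16 to 0.52. The part of dividing cells in the Uhrf1 value was not tested. Among 7 neuroblast genes, Stmn1, which binds tubulin, rose by 0.36 on the log2 scale (limma adjusted p = 4.9e-04) and the others were not called.

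Tdg (chr10:82092573-82113544, plus strand) was close to absent from the table. It had 0, 2, 1 and 1 reads in wild-type libraries and 0, 0, 1 and 0 in Mbd2-/- libraries, 5 reads in all. Both genotypes were at or below the limit of 3 reads per library, and no fold change is given. The sequence of this gene recurs elsewhere in the genome to an extent that no other gene of the set showed. Of the 3403 windows of 100 bases along its transcript, 2245 (66.0%) had an identical copy elsewhere in mm9 and 2895 (85.1%) a copy with at most 2 mismatches. Long copies lay at chr15:82346686-82349711 (98.6% identity, the gene Gm5806), at chr7:83388071-83391005 (99.3%), at chr10:41772360-41775162 (99.3%, the pseudogene Gm9855) and within Lipo1 on chromosome 19. Within the coding sequence, 830 of 1167 windows (71.1%) had an identical copy. The window from position 695 to 794 of the transcript is shown as an example, read from the mm9 transcripts of GENCODE vM1, and all of its bases recur without a mismatch on chromosomes 7 and 10.
Tdg: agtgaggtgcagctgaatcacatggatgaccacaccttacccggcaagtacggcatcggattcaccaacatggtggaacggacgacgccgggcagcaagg

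The reads used here were 100 bases long, which is why windows of this size were searched. Whether reads that match several places were kept is not given in the sources used here, and the part of these copies in the low Tdg counts was not tested. None of Gm5806, Gm9855, Gm5648 and Lipo1 was among the symbols of the table. The remaining 7 genes of the set had 0 windows with an identical copy or with a copy of at most 2 mismatches. Tdg also shares 367 exonic bases on the opposite strand with Glt8d2, which was measured at 165 ± 5.25 and 175 ± 10.4 normalized counts.

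**Figure D2:**
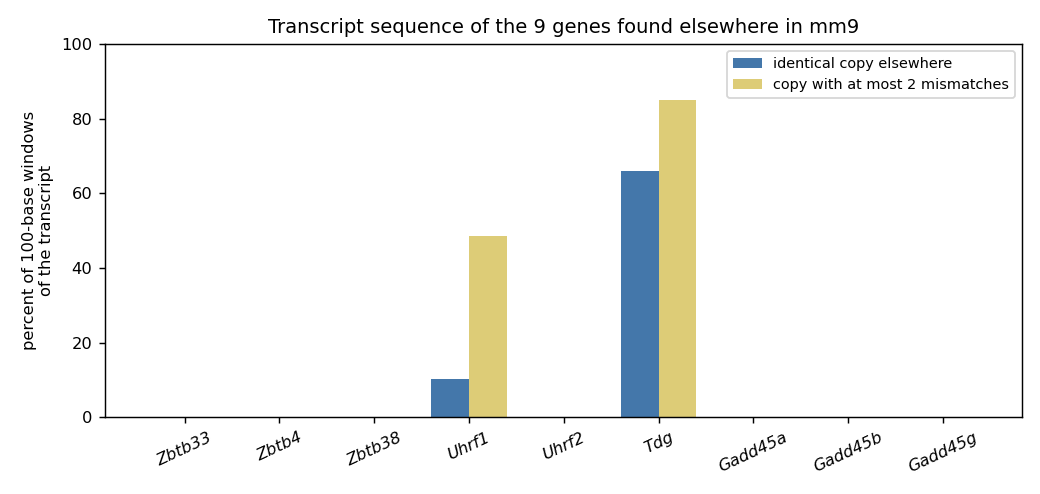
Percent of the 100-base windows along the longest transcript of each gene (vertical axis) that occur elsewhere in the mm9 genome, identically (blue) or with at most 2 mismatches (yellow). Tdg reaches 66.0% and 85.1%, Uhrf1 10.2% and 48.4%, and the other 7 genes are at 0.

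Enzymes around Tdg were measured with many more reads. In base excision repair, 23 of 24 genes were tested, with a median log2 fold change of -0.01. Of these, 2 were called higher and none lower, beside 12.0% and 10.0% over all tested genes. Mpg, the glycosylase for alkylated purines, rose by 0.39 on the log2 scale (78.5 ± 6.51 to 103 ± 1.80 normalized counts, limma adjusted p = 0.0165), and Tdp1, which removes blocked 3′ ends, rose by 0.34 (limma adjusted p = 0.0463). Parp1, the most abundant gene of the pathway, had 1448 ± 37.8 and 1422 ± 64.1 normalized counts and was not called.

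Of 7 tested genes of cytosine oxidation and deamination, 2 were called higher and 1 lower, beside 12.0% and 10.0% over all tested genes. Tet2, an oxidase of methylcytosine, fell by 0.31 on the log2 scale (481 ± 23.8 to 393 ± 68.4 normalized counts, limma adjusted p = 0.0344). Idh2 and Idh1, whose product 2-oxoglutarate the Tet enzymes need, rose by 0.39 (limma adjusted p = 8.3e-04) and 0.29 (limma adjusted p = 0.00902). Tet3, the most abundant of these genes at 1313 ± 85.6 and 1184 ± 116 normalized counts, was not called.

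Gadd45b (chr10:80392836-80394949, plus strand) is the gene of the set that differed. It had 66, 99, 90 and 194 reads in the wild-type libraries and 100, 139, 82 and 104 in the Mbd2-/- libraries, which became 98.9, 74.5, 82.0 and 103 against 127.7, 127.1, 130.7 and 99.9 normalized counts. Libraries 1, 2 and 3 of the Mbd2-/- genotype stood above every wild-type library and close to each other, and library 4 fell between the wild-type values. The mean rose from 89.6 ± 13.6 to 121 ± 14.4 normalized counts, a log2 fold change of 0.44 (SE 0.13, 95% interval 0.17 to 0.71, limma adjusted p = 0.0224), which 7.35% of the tested genes exceeded in size. By the exact two-sided permutation test, which does not borrow the spread of other genes, p was 0.0571. The call was lost with the length trend removed (0.23, limma adjusted p = 0.198). It also depended on single libraries, because the limma adjusted p was 0.0676 without Mbd2-/- library 1, 0.0684 without Mbd2-/- library 2, 0.0764 without wild-type library 2 and 0.0734 without wild-type library 3, and 0.0017 without Mbd2-/- library 4. With each library left out in turn, the log2 fold change lay between 0.35 and 0.53.

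Gadd45g (chr13:51942047-51943837, plus strand), the most abundant of the family, had normalized counts of 145, 149, 175 and 174 in wild-type and of 200.5, 171, 206 and 137 in Mbd2-/- libraries. Libraries 1 and 3 of the Mbd2-/- genotype were above the wild-type range, library 2 within it and library 4 below it. With all libraries the log2 fold change was 0.14 (SE 0.12, 95% interval -0.12 to 0.39, limma adjusted p = 0.441), and without Mbd2-/- library 4 it became 0.26 and passed the threshold (limma adjusted p = 0.0482).

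Gadd45a (chr6:66985090-66987451, minus strand), the member of the family known as a p53 target, had 15 to 44 reads per library. Its normalized counts were 37.5, 24.8, 24.6 and 23.4 in wild-type and 40.9, 29.3, 23.9 and 32.7 in Mbd2-/- libraries, and the genotypes overlapped. Its log2 fold change was 0.19 (SE 0.21, 95% interval -0.25 to 0.64, limma adjusted p = 0.544). E230016M11Rik, which shares 337 exonic bases with it on the opposite strand, had 28.7 ± 5.02 and 28.7 ± 3.46 normalized counts, and whether strand was used in counting is not given in the sources used here.

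Within the family, Gadd45b made up 29.0 ± 2.89% of the summed count per kilobase in wild-type and 33.3 ± 1.67% in Mbd2-/- libraries. In single libraries this share was 32.0, 27.0, 26.1 and 30.9% in wild-type and 31.4, 35.4, 32.8 and 33.7% in Mbd2-/- libraries, so that it was the wild-type library 1 and the Mbd2-/- library 1 that crossed (exact two-sided permutation p = 0.0571). Mbd2-/- library 4, in which the count of Gadd45b was lowest, did not stand apart in this share. Gadd45g made up 61.7 ± 4.44% and 57.6 ± 2.67% (exact permutation p = 0.143), and Gadd45a 9.30 ± 2.31% and 9.11 ± 2.30%.

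The sign of the differences in the set ran with transcript length, except in Uhrf1. Across all 14182 tested genes with a known length, the log2 fold change and length were related by a Spearman's rho of -0.459, taken across genes, and genes do not vary independently. The deviation of Mbd2-/- libraries 1, 2 and 3 from the mean of the wild-type libraries had a rho with length of -0.484, -0.431 and -0.480, that of library 4 one of -0.0963, and the wild-type libraries lay between -0.0656 and 0.0647. Gadd45b, Gadd45a and Gadd45g, with transcripts of 1266, 1223 and 1071 bases, belong to the shortest of 10 equal length classes, of which 38.1% were called higher and 1.13% lower and whose median log2 fold change was 0.26. Zbtb4 and Zbtb38, of 7811 and 7413 bases, belong to the longest class, of which 2.12% were called higher and 28.9% lower and whose median was -0.14. Zbtb33, of 5122 bases, lies in class 9 from the shortest, with a median of -0.10, and Uhrf1 and Uhrf2 in class 6, with a median of -0.02.

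**Figure D3:**
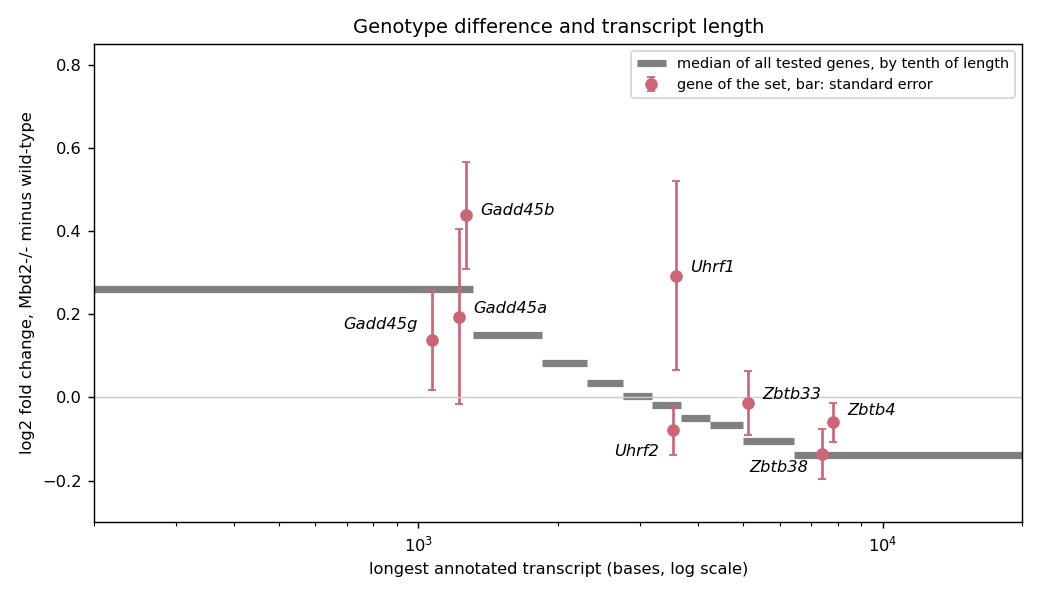
Log2 fold change of the 8 tested genes (red, with the standard error) against the length of the longest annotated transcript (bases, log scale). Grey bars are medians of all tested genes in 10 classes of length and fall from 0.26 in the shortest to -0.14 in the longest class. Gadd45b lies above the bar of its class, Gadd45a and Gadd45g below it, and Zbtb38 close to it.

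After a smooth trend with length had been subtracted from each library, no gene of the set was called and none was without overlap. The log2 fold change of Gadd45b then was 0.23 (limma adjusted p = 0.198), that of Gadd45a -0.02 and that of Gadd45g -0.10. Zbtb38 came to -0.01, while Zbtb4 and Zbtb33 both came to 0.06. Uhrf1 at 0.31 and Uhrf2 at -0.06 moved little. Over all genes, 2114 were called in this setting, 1148 higher and 966 lower, and the log2 fold change of Mbd2 was -0.53 (limma adjusted p = 0.00187).

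**Figure D4:**
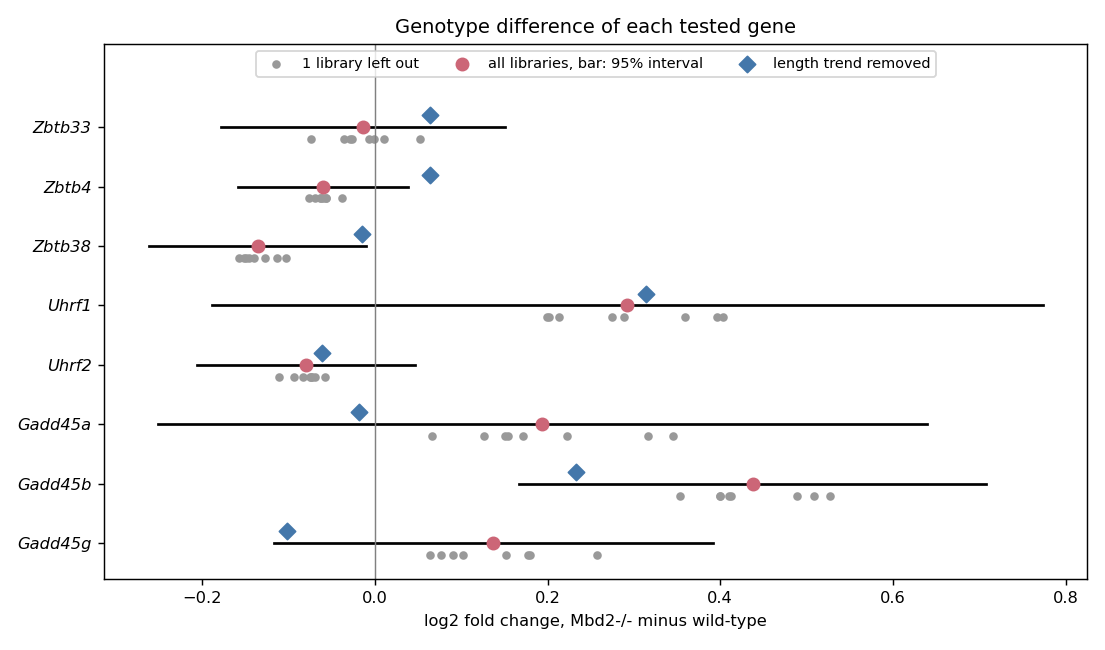
Log2 fold change, Mbd2-/- minus wild-type (horizontal axis), of the 8 tested genes with all libraries (red, bar 95% interval), with each library left out in turn (grey) and with the length trend removed (blue diamonds). Only for Gadd45b and Zbtb38 does the interval leave out 0, and the blue diamonds of Gadd45a, Gadd45g, Zbtb33 and Zbtb4 lie on the other side of 0 from the red points.

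Of 10 tested genes for partners of the Gadd45 proteins, Pcna and Ing1 were called higher and none lower, with a median of 0.04. Over all tested genes, 12.0% were called higher and 10.0% lower. Ing1, which recruits Gadd45a to methylated histone, rose by 0.23 on the log2 scale (306 ± 16.4 to 360.3 ± 26.3 normalized counts, limma adjusted p = 0.0351). Mapk14, the p38 kinase downstream of Gadd45, was the most abundant at 1125 ± 25.4 and 1019.9 ± 24.8 and missed the threshold (limma adjusted p = 0.0591). Of 14 p53 and stress targets, Bax, which promotes apoptosis, was the only one called and rose by 0.30 (limma adjusted p = 0.0320), but came to 0.05 with the length trend removed (limma adjusted p = 0.700), and Plk2, the most abundant, was not called at 2643 ± 171 and 2365 ± 153.

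Immediate early genes respond to neuronal activity, as Gadd45b does. Of 21 tested, 5 were called lower and none higher, and their median was -0.04. Egr1 fell by 0.33 on the log2 scale (1470.5 ± 63.5 to 1167 ± 71.6 normalized counts, limma adjusted p = 9.9e-04), Per1 fell by 0.30 (limma adjusted p = 0.0014) and Nr4a2 fell by 0.29 (limma adjusted p = 0.00285). Arc, the most abundant, had 2126 ± 72.4 and 2383 ± 219 normalized counts and was not called (limma adjusted p = 0.073). Without overlap between the genotypes, 2 of the 21 were higher and 6 lower. The shares called and without overlap over all tested genes were 22.0% and 23.6%, and nothing particular to this list is read from its counts.

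**Figure D5:**
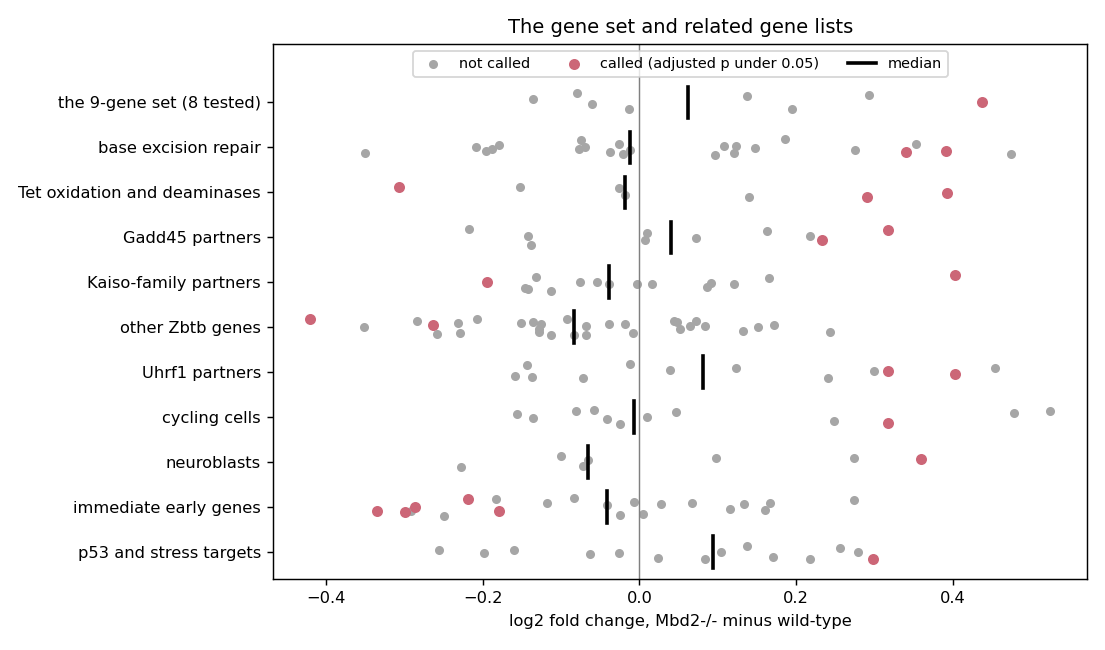
Log2 fold change, Mbd2-/- minus wild-type (horizontal axis), of each tested gene in the set and in 10 related lists. Red points passed an adjusted p under 0.05, grey points did not, and black bars are medians, which lie between -0.08 for the other Zbtb genes and 0.09 for p53 and stress targets.

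Altogether 147 genes of the related lists were tested, counting a gene in several lists once, and 18 were called, 9 higher and 9 lower. This is a smaller share than the 22.0% called over all tested genes. With the length trend removed 16 were called, of which 9 were among the 18. Those 9 were Tdp1, Idh1, Idh2, Hdac1, Egr1, Nr4a2, Per1, Zbtb14 and Zbtb16, whereas Pcna, Ing1, Mpg, Tet2, Sin3b, Bax, Stmn1, Fosl2 and Sik1 were no longer called. Among the latter, Ing1 at 0.21 and Mpg at 0.31 kept most of their log2 fold change (limma adjusted p = 0.0568 and 0.0612), that of Pcna came to 0.15, of Stmn1 to 0.12 and of Bax to 0.05, and those of Tet2, Sin3b, Sik1 and Fosl2 came to -0.17, -0.15, -0.16 and -0.08.

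The 2 genes whose levels followed Gadd45b most closely within genotypes were Uqcrfs1, a subunit of respiratory complex III, and Gstm5, a glutathione transferase. After the mean of each genotype was subtracted, Pearson's r over the 8 libraries was 0.976 and 0.957, the highest among the 10630 genes whose mean normalized count reached 100, and these points share the depth and the length trend of their libraries. So wide a search over 8 libraries can return high values by its size alone, and no shared regulation is read from them. Uqcrfs1 was higher in Mbd2-/- mice by 0.35 and Gstm5 by 0.44 on the log2 scale.

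Markers of other cell types also differed between the genotypes. Beside the choroid plexus genes, none of which was at 0 in any library, 5 of 8 astrocyte genes, 6 of 8 oligodendrocyte genes, 6 of 8 microglia genes and 4 of 8 endothelial and pericyte genes were called higher and none lower. Over all tested genes, 12.0% were called higher. Of 8 interneuron genes, 4 were called higher and 2 lower, with a median of 0.04 and overlapping sums of 9521 to 9832 against 8714 to 9845 normalized counts. In these lists no gene was at 0 in any library. With the length trend removed, 3 microglia genes were called higher, 2 of them among the 6, and 1 interneuron gene was called higher and 3 lower, while 16 choroid plexus, 7 astrocyte, 5 oligodendrocyte and 5 endothelial and pericyte genes were called higher. The summed levels were 114919 to 117694 against 126829 to 149835 normalized counts for astrocytes, 80404 to 81752 against 94693 to 101161 for oligodendrocytes, 5383 to 5649 against 6112 to 6984 for microglia and 3248 to 3399 against 3727 to 4041 for endothelial cells and pericytes. Mbd2-/- library 4, in which Gadd45b was lowest, had the lowest sum of the Mbd2-/- libraries for choroid plexus, oligodendrocytes and microglia and the highest for astrocytes and for endothelial cells and pericytes. These ranks rest largely on single abundant genes and are not read as cell content. In library 4, Slc1a2 was 113218 of the astrocyte sum of 149835, Ttr 27304 of the choroid plexus sum and Mbp 43806 of the oligodendrocyte sum. Other astrocyte genes ran either way, with Aldoc lowest there (10771) and Gja1 highest (4010) among the Mbd2-/- libraries. The part of these cell types in the Gadd45b value was not tested.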

How the data were processed

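Total RNA depleted of ribosomal RNA was sequenced as paired reads of 100 bases. The authors removed duplicates, aligned reads to mm9 with STAR and compared genotypes with DESeq2, and the tool that counted reads on genes is not given in the sources used here. The deposited signal is a normalized count, for which the authors divided gene reads by a DESeq2 size factor per library. The deposited table also holds the authors' mean, log2 fold change with its standard error, test score, p-value and adjusted p-value, none of which was used. Reads were recovered by dividing by the value of 1 read, and 100% of values were whole to within 0.01.

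The test was limma 3.58.1 (trend, robust) in R 4.3.3, fitted to log2(normalized count + 1) for genes averaging 10 or more, and fold changes are on this scale, which understates those of low genes. Calls needed an adjusted p (Benjamini-Hochberg) under 0.05 over 14504 genes, and the fit was tested on simulated data. Values after ± are SDs over 4 libraries. P-values measure the spread between pools of mice. Depth intervals and limits cover counting error only. Each gene of the set also had an exact permutation test, two-sided (smallest p 0.0286). Alternatives were DESeq2 1.42.0, edgeR 4.0.16, other scalings, pseudocounts and filters, the replicate block, removal of a smooth trend with transcript length, and each library left out.

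Symbols were matched to GENCODE vM1 on mm9 for 18097 of 19201 genes. Copies of transcripts were found with blastn 2.17.0, and promoters came from RefSeq on GRCm38.p6, of which no coordinate was mixed with mm9. The genes and lists were chosen with earlier results of these data known. Named genes are the 9, Mbd2, the called genes of each related list (up to 3 per direction) with its most abundant gene, and the 2 genes most correlated with a called one. Some genes of the sex and cell type lists are also named. Same-numbered libraries were not paired, since their deviations from the group means correlated at -0.10, -0.06, 0.07 and 0.04.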

Additional observations from a re-analysis of the deposited data

Results flagged for a closer look

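Among 20 groups of 4 libraries (the 9 genes and Mbd2, in each genotype), 2 with counts above a few reads held a library whose gap to its nearest neighbour took more of the range of the group than Dixon's 95% critical value for 4 samples, and chance alone marks about 1 group in 20. In Gadd45b, Mbd2-/- library 4 stood at 99.9 normalized counts, below the other 3, which lay between 127.1 and 130.7. In Gadd45a, wild-type library 1 stood at 37.5 normalized counts, above the other 3, which lay between 23.4 and 24.8. Tdg met the same criterion in the Mbd2-/- group, where library 3 stood at 1.59 normalized counts, which is 1 read, and the other 3 had none. With 3 values at 0 any single read meets it, so this says nothing about that library.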

How the results depend on the processing

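Under DESeq2, edgeR, both other scalings, both pseudocounts, both filters and the replicate block, Gadd45b stayed the 1 gene of the set called (adjusted p 0.0217 to 0.0289). With the length trend removed the set had 0 called genes and 0 without overlap, 2114 genes were called over all, and the log2 fold changes were 0.23 for Gadd45b, 0.0639 for Zbtb33, 0.0639 for Zbtb4, -0.0178 for Gadd45a and -0.101 for Gadd45g, the last 4 with turned sign. That of Zbtb33 ranged from -0.0738 to 0.0522 with 1 library left out, and it was positive without Mbd2-/- library 3 (0.0522) and without wild-type library 2 (0.0108). With each library left out in turn, 2073 to 5156 genes were called (5156 without Mbd2-/- library 4, 2073 without wild-type library 3), 0 to 2 of the set (0 without Mbd2-/- libraries 1 or 2 or wild-type libraries 2 or 3, and 2 without Mbd2-/- library 4), and 10 to 43 genes of the related lists (43 without Mbd2-/- library 4). The log2 fold change of Mbd2 ranged from -0.56 to -0.35, with an adjusted p above 0.05 without Mbd2-/- libraries 1 or 2 or wild-type library 3 (0.0539, 0.0576 and 0.0624). The cause was not tested. Counts for the related lists were added after seeing the data.

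Fitted with the replicate block, 3192 genes were called against 3185 without it, with Gadd45b at an adjusted p of 0.0264, and no call in the set changed. Upper quartile scaling gave 1613 higher and 1639 lower genes against 1735 and 1450. The 5 reads of Tdg and the 14 to 39 per library of Uhrf1 limit what could be seen in these genes.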
